A study of Homo sapiens with 24 samples.

Results

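The effect of a raised level of SLC25A51 was measured by sequencing of polyadenylated RNA in cells that had not been given the complex I blocker MPP+. Of the 6 libraries, 3 came from cells labelled as overexpressing MCART1, an earlier name of SLC25A51 (oeMCART1), and 3 from cells with the control construct (oeNC). The comparison covered the 13944 of 63241 listed genes that reached 1 TPM (transcript abundances corrected for transcript length that add up to 1 fixed total per library) in at least 3 of these 6 libraries. The same study held 3 untreated libraries each of a scrambled hairpin (shScramble) and of a hairpin against MCART1 (shMCART1), and 3 libraries of every one of the 4 groups after 0.5 mM MPP+ for 24 h, 24 libraries in all. They are used here only where the overexpression effect is set against them. All samples carry the labels SH-SY5Y and bone marrow, the cell type label is human neuroblastoma, and the culture text names HEK293T besides SH-SY5Y. Neither the vectors and promoters nor the number of clones is given in the sources used here, and whether the 3 replicates of a group were separate cultures is not stated. The p-values below therefore rest on a spread between libraries that may be technical.

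SLC25A51 sits in the inner membrane of mitochondria and carries NAD+ from the cytosol to the matrix. In the matrix NAD+ takes up electrons from the tricarboxylic acid (TCA) cycle and from fatty acid oxidation, and complex I, whose subunits come partly from mitochondrial and partly from nuclear DNA, takes them back from NADH into the respiratory chain. SLC25A52 is a near-identical copy of the gene with the same transport activity.

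The cell type label was checked against its markers, and the data went against it. Of 18 genes listed as markers of noradrenergic neuroblastoma, 7 reached the abundance filter. The lineage transcription factor PHOX2A, the catecholamine enzyme TH, the vesicular amine transporter SLC18A1 and the neuronal RNA-binding protein ELAVL4 were at 0 TPM in all 6 libraries. DBH, the enzyme that makes noradrenaline, stood at 0, 0.02 and 0.02 TPM in oeNC and 0.02, 0 and 0.04 TPM in oeMCART1. TH, SLC18A1 and ELAVL4 were also at 0 TPM in all 12 untreated libraries. Among the 7 that reached the filter, GATA2 was the most abundant with 38.5, 31.2 and 36.2 TPM in oeNC and 30.7, 27.6 and 28.6 TPM in oeMCART1, and TUBB3, a neuronal tubulin, reached 11.8, 10.3 and 13.2 TPM in oeNC and 8.38, 8.95 and 8.99 TPM in oeMCART1. HAND2 read 2.66, 2.98 and 2.6 TPM in oeNC and 3.12, 2.6 and 2.59 TPM in oeMCART1. GATA3 read 4.11, 3.92 and 5.3 TPM in oeNC and 4.98, 5.6 and 4.22 TPM in oeMCART1. ISL1 read 2.22, 3.05 and 2.47 TPM in oeNC and 3.86, 4.8 and 4.06 TPM in oeMCART1. The summed level of the 18 markers was 55.1 to 63.7 TPM in oeNC and 52.8 to 55.5 TPM in oeMCART1. Of 7 kidney lineage markers 4 reached the filter, and their summed level was 41.5 to 43.6 TPM in oeNC and 36.6 to 38.0 TPM in oeMCART1. SIX2, a transcription factor of kidney progenitors, supplied most of that sum, with 34, 31.8 and 34.1 TPM in oeNC and 24.7, 25.6 and 25.7 TPM in oeMCART1, and WT1 stood at 4.46, 6.79 and 6.06 TPM in oeNC and 7.64, 6.31 and 7.3 TPM in oeMCART1. Other members of the kidney list were low. PAX2 read 0.98, 0.63 and 0.59 TPM in oeNC and 0.41, 0.53 and 0.66 TPM in oeMCART1. PAX8 read 0, 0 and 0 TPM in oeNC and 0.02, 0 and 0.05 TPM in oeMCART1. Of 8 blood and marrow markers 2 passed the filter, HBB was at 0 TPM in all 6 libraries, and the summed level of 24.0 to 37.0 TPM came largely from HBA1, whose near-identical copy HBA2 may share its reads. Of 8 fibroblast markers 5 passed (summed level 19.9 to 29.1 TPM, with COL1A2 at 0 TPM), of 6 epithelial markers 2 (3.13 to 6.11 TPM, with KRT5 and KRT14 at 0 TPM), of 6 glial markers 2 (3.27 to 5.63 TPM) and of 4 endothelial markers none (0.14 to 0.38 TPM). The part of any admixed cells in the results below was not tested. The cells are called by their construct below.

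**Figure D1:**
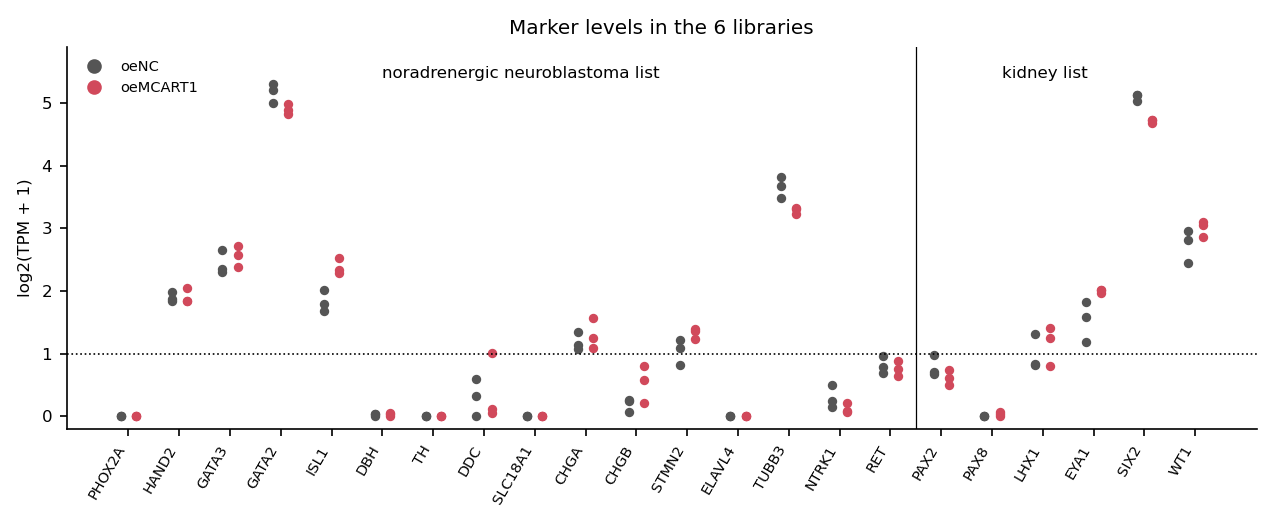
Level of noradrenergic neuroblastoma markers and kidney lineage markers (log2(TPM + 1), vertical axis) in the 3 oeNC and 3 oeMCART1 libraries, each point 1 library and the dotted line 1 TPM. PHOX2A, TH, SLC18A1 and ELAVL4 lie at 0 in all 6 libraries, while GATA2, TUBB3 and SIX2 lie highest.

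SLC25A51 itself (ENSG00000122696, chromosome 9, 37879400 to 37904353, minus strand in the GENCODE 29 annotation of GRCh38) was measured at 29.5, 35.7 and 29.7 TPM in oeNC and 697, 674 and 678 TPM in oeMCART1. Every oeMCART1 library lay far above every oeNC library. The means were 31.6 ± 3.48 TPM and 683 ± 12.3 TPM (SD, n = 3), a ratio of 21.6. The log2 change was 4.39 (95% confidence interval 4.21 to 4.58, limma adjusted p = 3.72e-07), and p was 0.10 in a two-sided exact permutation test of the TPM, which cannot go lower with 3 libraries a group. The control construct did not sit at the level of the scrambled hairpin: SLC25A51 stood at 10.5, 11.1 and 11.2 TPM in shScramble and at 6.91, 9.45 and 5.47 TPM in shMCART1, so oeNC lay above all 6 hairpin libraries. SLC25A52 was listed at 0 TPM in all 6 overexpression libraries. One pseudogene copy, SLC25A51P4 (ENSG00000290742), read 1.21, 1.65 and 1.30 TPM in oeNC and 1.96, 2.19 and 2.68 TPM in oeMCART1, and reads of near-identical copies cannot be told apart here.

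**Figure D2:**
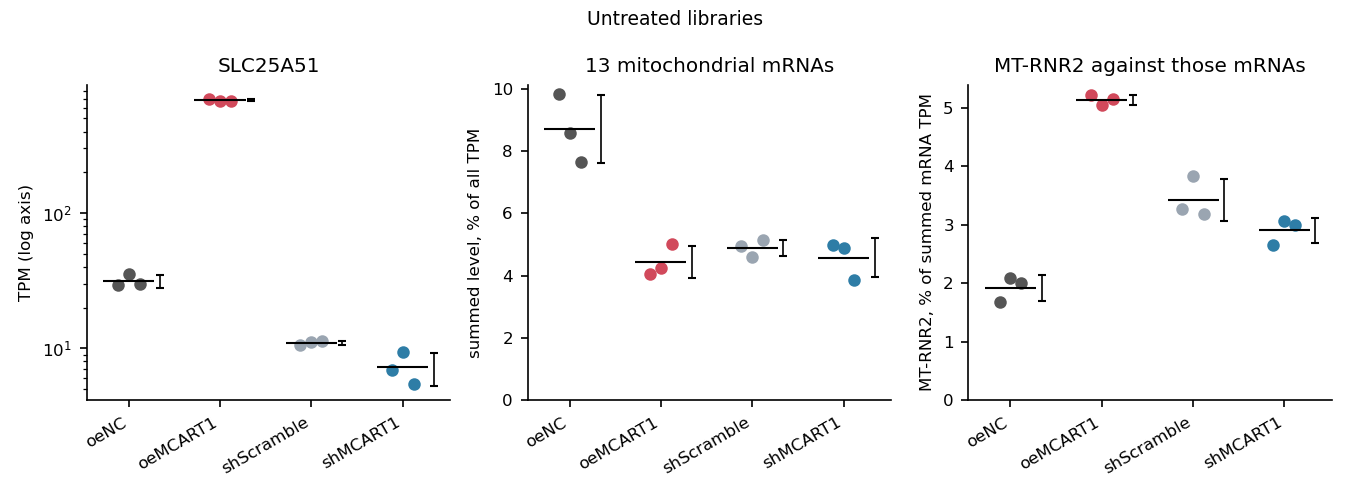
SLC25A51 (left, TPM on a log axis), the summed level of the 13 mitochondrial mRNAs (middle, percent of all TPM) and the level of MT-RNR2 as a percent of that sum (right) in the 12 untreated libraries. Points are libraries, horizontal lines means and the bars beside them 1 SD (n = 3). SLC25A51 is highest in oeMCART1, the mitochondrial mRNA share is highest in oeNC, and the MT-RNR2 percentage is lowest in oeNC and highest in oeMCART1.

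The overexpression libraries differed from their controls across much of the transcriptome. At an adjusted p under 0.05 in limma, 7651 genes (54.9% of those tested) differed, 5299 higher (38.0%) and 2352 lower (16.9%) in oeMCART1. Most of these changes were small. Among the genes called higher, 561 changed by 2-fold or more and the median log2 change was 0.69, while among those called lower 19 did and the median size was 0.39. The 2 groups of libraries did not overlap in 64.8% of genes. They did not overlap in 5249 of the 5299 genes called higher and 2334 of the 2352 called lower. The oeMCART1 libraries also stood outside the other untreated libraries more often than their controls did: all 3 lay above or all 3 below the 9 others in 38.3% of genes, against 2.29% for oeNC, 1.4% for shScramble and 14.4% for shMCART1. Because TPM share a fixed total, the balance of higher and lower calls depended on the scaling: 69.3% of calls were higher as deposited, 50.3% after median-of-ratios scaling, which took the median log2 change over all genes from 0.17 to -0.01, and 48.5% after quantile normalization. Of all genes tested, 29.3% were called higher and 28.9% lower after median-of-ratios scaling, and 28.3 and 30.1% after quantile normalization. Counts in the gene lists below under these scalings are to be read beside these shares.

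The change of a gene followed the GC content of its transcript. With genes cut into 5 equal bins of GC content, in the lowest bin (27.4 to 41.4%), 85.6% rose and 0.297% fell, with a median log2 change of 0.75. In the highest bin (58.5 to 74.9%), 0.445% rose and 55.3% fell, with a median of -0.33. Across 13469 genes with a matched transcript, Spearman's rho between change and GC content was -0.82, as a description of these 6 libraries over genes that are not independent. The same contrast could be read within each library, as the mean log2(TPM + 1) of the highest GC bin minus that of the lowest. It was 1.46, 0.886 and 1.28 in oeNC, 0.252, 0.178 and 0.157 in oeMCART1, 0.974, 0.566 and 0.994 in shScramble, and 1.62, 1.36 and 2.16 in shMCART1. The oeMCART1 libraries were the flattest of the 12, and oeNC replicate 2 was the flattest of its group and the oeNC library nearest to oeMCART1 in overall expression. After each library's trend on GC content was removed, so that a gene is compared with genes of its own GC content, 2468 of 13469 genes (18.3%) were called, 1272 higher (9.44%) and 1196 lower (8.88%). Of the 7651 genes called in the deposited values, 1735 kept their call and direction and 1566 changed sign. Without oeMCART1 replicate 1, 2 or 3 the number called after removal was 969, 745 and 812, and without oeNC replicate 1, 2 or 3 it was 1443, 3560 and 935. In 37 of the 40 gene lists described below the number higher or lower after removal also moved by over 1.5 times, moves to or from 0 included, when 1 library was left out, against 25 as deposited, and in no list did any omission leave more calls than that of oeNC replicate 2. What set the GC contrast of the libraries was not tested. Changes are given below as deposited and with GC trends removed, in that order where 2 values stand in brackets.

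**Figure D3:**
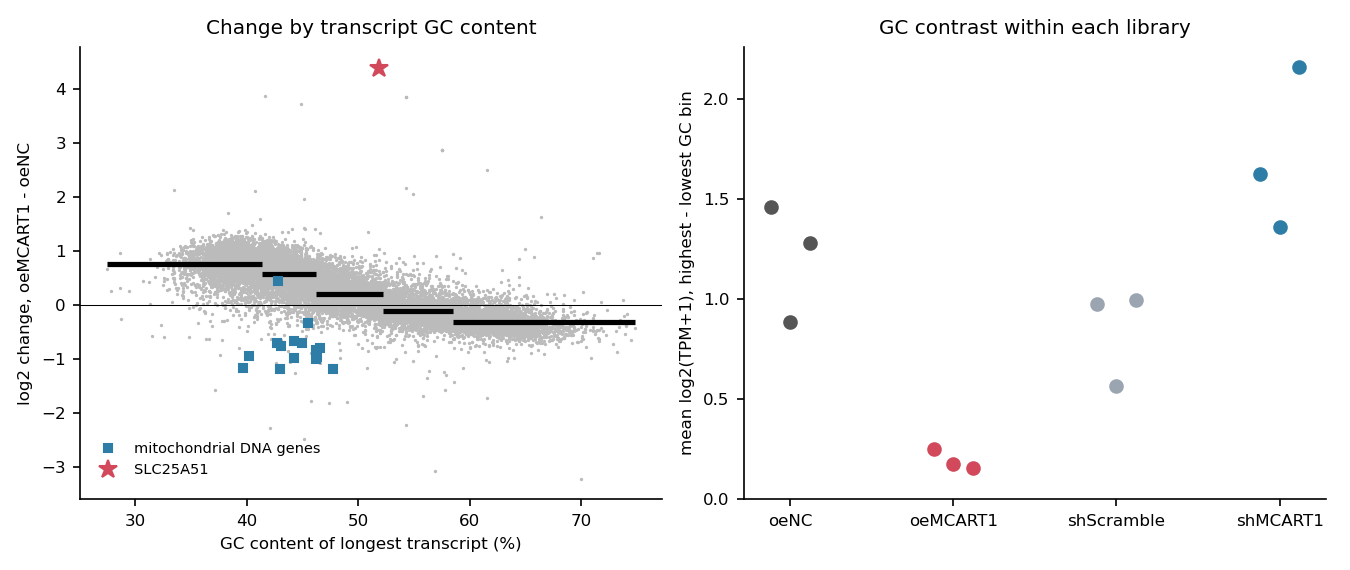
Left, log2 change of each gene (oeMCART1 minus oeNC) against the GC content of its longest transcript (percent), with black bars at the median of each GC bin, squares for mitochondrial DNA genes and a star for SLC25A51. Right, mean log2(TPM + 1) of the highest GC bin minus that of the lowest in each untreated library. The medians fall from 0.75 in the lowest GC bin to -0.33 in the highest, and the 3 oeMCART1 libraries have the smallest contrast.

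After SLC25A51 the protein-coding genes with the largest rise were led by RPAP2, a phosphatase of the RNA polymerase II tail, at 3.35, 6.36 and 4.01 TPM in oeNC and 14.1, 18 and 14.4 TPM in oeMCART1 (log2 change 1.60, 0.92 with GC trends removed). DHX29, a helicase of translation initiation, stood at 2.75, 3.61 and 3.48 TPM in oeNC and 10.7, 10.9 and 10.9 TPM in oeMCART1 and rose by 1.48 on the log2 scale. PIGK, which attaches GPI anchors to proteins, stood at 7.18, 12.7 and 9.82 TPM in oeNC and 26.1, 26.4 and 30.2 TPM in oeMCART1. The ranking took only called genes whose 2 groups of libraries did not overlap. The 3 oeMCART1 libraries were close together for each of these genes, and all 3 genes kept their call with GC trends removed. HSP90AA1, the stress-inducible cytosolic HSP90, was the most abundant gene of the group, at 169.9, 263 and 217 TPM in oeNC and 546, 569 and 591 TPM in oeMCART1. It rose by 1.41 on the log2 scale (SE 0.14, limma adjusted p = 0.00253) and by 0.97 with GC trends removed.

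Others of the 15 genes with the largest rise were ASCC3 (log2 change 1.39), WDR75 (1.36), CSE1L (1.36), OBI1 (1.35), SRP72 (1.34), EPRS1 (1.34), CCDC90B (1.32), TRMT10A (1.39) and ZFP90 (1.41). CSE1L, an exporter of importin alpha from the nucleus, stood at 30.6, 52.6 and 40.3 TPM in oeNC and 100.4, 104 and 110.0 TPM in oeMCART1. SRP72, a protein of the signal recognition particle, stood at 17.1, 25.6 and 22.2 TPM in oeNC and 53.7, 59.6 and 53.8 TPM in oeMCART1, and EPRS1, the glutamyl-prolyl tRNA synthetase, at 25.5, 38 and 35.7 TPM in oeNC and 88, 85.4 and 79.4 TPM in oeMCART1. As the ranking required, the libraries did not overlap in any of these 3 genes. Their transcripts were poor in GC (39.2 to 43.2%), and their log2 changes with GC trends removed were 0.63, 0.63 and 0.77. TRMT10A and ZFP90 lost their call with GC trends removed (adjusted p = 0.0986 and 0.176), and ZFP90 rested on 1 library, at 3.52, 2.92 and 12.3 TPM in oeMCART1.

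Ranked with GC trends removed, the 8 largest rises also brought in YAE1, COPS5, ULBP3 and 2 histone genes. YAE1, which serves cytosolic iron-sulfur protein assembly, stood at 10.9, 15.4 and 13.2 TPM in oeNC and 27.6, 23.3 and 25 TPM in oeMCART1 (log2 change 0.90, 0.98 with GC trends removed). COPS5, the catalytic subunit of the COP9 signalosome, stood at 30.2, 48.1 and 36.5 TPM in oeNC and 79.3, 78.9 and 77.7 TPM in oeMCART1. ULBP3, a ligand of the natural killer cell receptor NKG2D, stood at 3.18, 3.82 and 3.36 TPM in oeNC and 7.12, 6.49 and 6.11 TPM in oeMCART1. The histone genes H2BC17 and H4C14 had log2 changes of 0.64 and 0.70. H2BC17 read 5.24, 4.43 and 4.05 TPM in oeNC and 7.21, 9.29 and 6.64 TPM in oeMCART1. H4C14 read 18.5, 14.9 and 12.5 TPM in oeNC and 22.5, 23.5 and 30.2 TPM in oeMCART1. RNA was captured by its poly(A) tail, so histone transcripts without such a tail were not measured. As the ranking required, no oeNC library overlapped an oeMCART1 library in any of the 5 genes that it brought in.

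Falls of nuclear genes were smaller, and the mitochondrial mRNAs, which fell by up to 1.19 on the log2 scale, are described below. Of the nuclear protein-coding genes ranked by the same rule, LBH, a transcriptional cofactor of development, fell most, from 8.27, 6.12 and 8.4 TPM in oeNC to 3.12, 3.26 and 3.31 TPM in oeMCART1 (log2 change -1.01, limma adjusted p = 0.00279, and -1.002 with GC trends removed). ISYNA1, the enzyme that makes inositol phosphate from glucose phosphate, stood at 164, 116 and 149 TPM in oeNC and 76.7, 67.5 and 68.2 TPM in oeMCART1 and fell by 0.99 on the log2 scale. CLU, the secreted chaperone clusterin, stood at 30.8, 30.7 and 31.2 TPM in oeNC and 15.7, 18.6 and 18.4 TPM in oeMCART1, and its 3 control libraries were nearly identical. PER1, a component of the circadian clock, stood at 24.6, 23 and 27.3 TPM in oeNC and 15.7, 13.1 and 13.7 TPM in oeMCART1, and THOC6, a subunit of the mRNA export complex THO, at 94.2, 74.2 and 81 TPM in oeNC and 47.8, 49.1 and 45.3 TPM in oeMCART1. As the ranking required, the libraries of the 2 groups did not overlap in any of these 5 genes. Each kept its call with GC trends removed.

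Of the other 10 nuclear genes with the largest falls, MT1F, a metallothionein that binds zinc and copper, read 15.8, 13.8 and 16.1 TPM in oeNC and 5.88, 9.6 and 8.65 TPM in oeMCART1. B4GALNT4 (-0.90), ENHO (-0.84), MFSD3 (-0.77), ZNF580 (-0.77), TRAPPC5 (-0.76), CSKMT (-0.79), LY6G6D (-0.81), SLX1B (-0.89) and C4orf48 (-0.87) had the log2 changes in brackets. LY6G6D and C4orf48 lost their call with GC trends removed (adjusted p = 0.115 and 0.0546), and SLX1B has a near-identical copy whose reads cannot be told apart. The ranking with GC trends removed added genes that fell little as deposited but stood well below others of their GC content. They were UQCC5 (an assembly factor of respiratory complex III, -0.35 as deposited and -0.97 after removal), TMED3 (-0.48 and -0.93), the translation initiation subunit EIF3F (-0.22 and -0.91), the ribosomal protein RPS29 (-0.30 and -0.90) and ATP5MC3, a gene for the c ring of ATP synthase (-0.16 and -0.84).

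**Figure D4:**
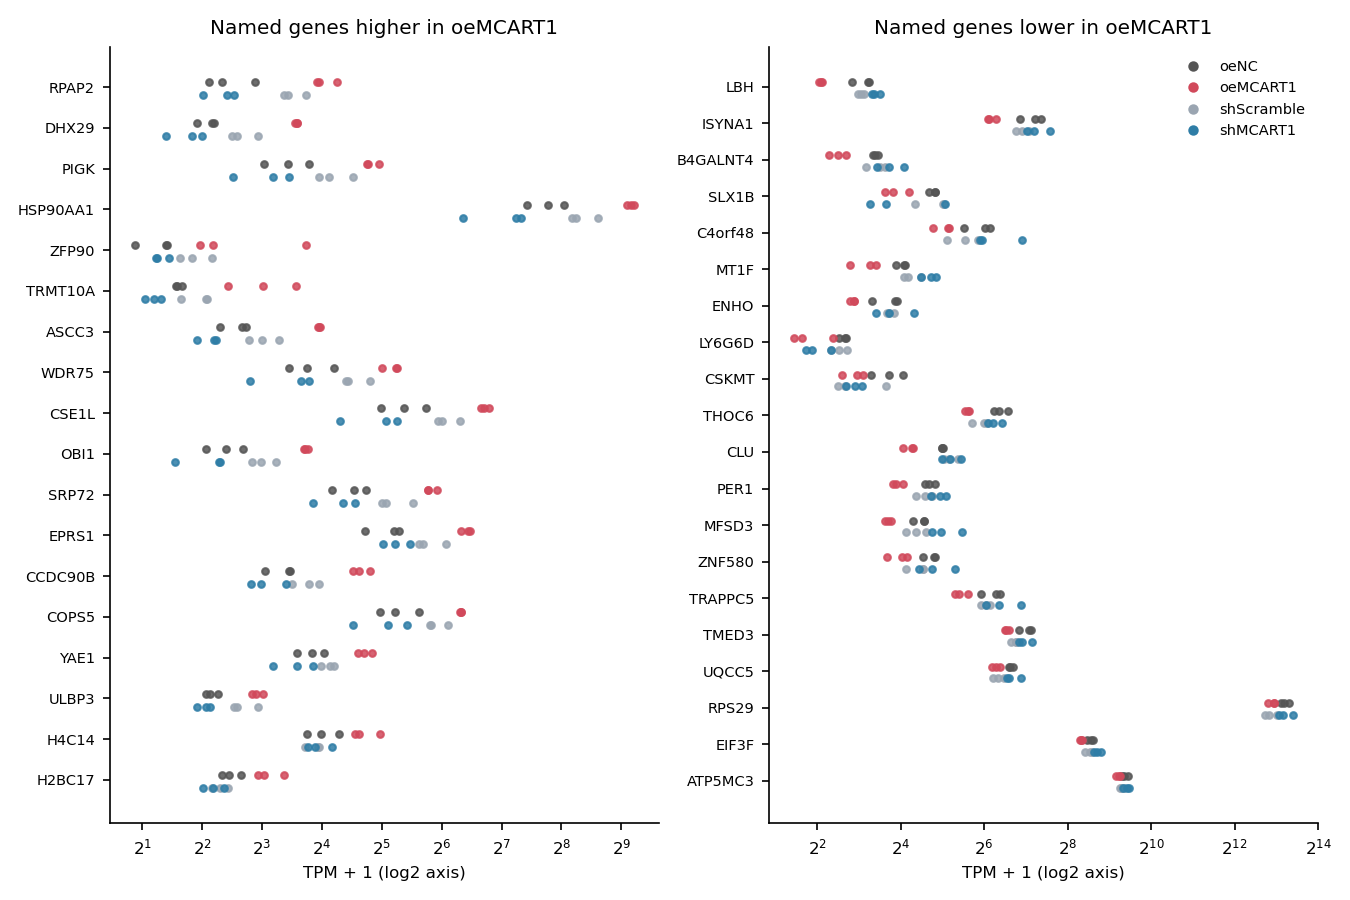
Level (TPM + 1, log2 axis) of named genes that were higher (left) or lower (right) in oeMCART1, apart from SLC25A51, each point 1 of the 12 untreated libraries and the upper row of each gene the overexpression pair. HSP90AA1 rises from 169.9 to 262.9 TPM in oeNC to 545.8 to 590.7 TPM in oeMCART1, while LBH lies lower in the 3 oeMCART1 libraries than in the 9 others.

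Messenger RNAs of mitochondrial DNA were lower in oeMCART1 throughout. All 13 were called lower, with a median log2 change of -0.95. All 13 kept that call with GC trends removed (median -1.34), after median-of-ratios scaling, and without any 1 of the 6 libraries. They are counted as listed genes, which need not vary independently. MT-ATP8, an ATP synthase subunit, stood at 25399, 20125 and 17568 TPM in oeNC and 8234, 9029 and 10761 TPM in oeMCART1. MT-CO2, a cytochrome oxidase subunit, stood at 11934, 10666 and 9679 TPM in oeNC and 4895, 5205 and 5987 TPM in oeMCART1 (log2 change -1.004). Among the 7 complex I subunits the fall ran from -0.66 (MT-ND4) to -1.19 (MT-ND2, at 2256, 2185 and 1712 TPM in oeNC and 800.0, 881 and 998 TPM in oeMCART1). MT-CYB of complex III changed by -0.96. Together the 13 mRNAs made up 9.84, 8.59 and 7.66% of all TPM in oeNC and 4.05, 4.26 and 5.01% in oeMCART1. The 2 groups did not overlap, and the exact permutation test gave p = 0.10, the smallest possible. In bulk RNA fewer cells of a kind and less RNA per cell cannot be told apart.

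Neither of the 2 ribosomal RNAs of mitochondrial DNA was called lower as deposited. Copies of these genes lie in nuclear DNA, and reads from them may be mixed in. RNA was captured by its poly(A) tail, so the values below need not follow the level of ribosomal RNA in the cells. MT-RNR2, the large ribosomal RNA, stood at 1651, 1802 and 1539 TPM in oeNC and 2109, 2147 and 2579 TPM in oeMCART1. It rose by 0.45 on the log2 scale (adjusted p = 0.00564), but with GC trends removed its change was -0.15 and not called. MT-RNR1, the small ribosomal RNA, stood at 2808, 3511 and 2434 TPM in oeNC and 2047, 1899 and 3095 TPM in oeMCART1, and its libraries overlapped (log2 change -0.33, adjusted p = 0.186). With GC trends removed it was called lower (-0.75, adjusted p = 0.0317). As a percent of the summed mRNA in the same library, MT-RNR2 was 1.68, 2.10 and 2.01% in oeNC and 5.21, 5.04 and 5.14% in oeMCART1, a ratio of 2.66 (exact permutation p = 0.10, the smallest possible). It was 3.26, 3.84 and 3.18% in shScramble and 2.66, 3.06 and 2.995% in shMCART1, so the oeNC libraries were the lowest and the oeMCART1 libraries the highest of the 12. This percentage was chosen after the values were seen. With MPP+ it was 90.8, 94.5 and 94.0% in oeNC and 86.4, 94.9 and 93.0% in oeMCART1, and the 2 groups overlapped. Those libraries are in a separate table, so treatment and table cannot be told apart.

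Which group stood apart differed between the mitochondrial mRNAs and other genes. In all 13 the 3 oeNC libraries lay above the 9 other untreated libraries, and in 0 of 13 did the oeMCART1 libraries lie outside the others. The mRNA share was 4.61 to 5.13% of TPM in shScramble and 3.85 to 5.00% in shMCART1, next to 4.05 to 5.01% in oeMCART1. The fall was thus measured against a control whose mitochondrial mRNA level was the highest of the untreated groups, as its SLC25A51 level was above that of the hairpin groups. The part of the control construct in the fall was not tested.

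Nuclear genes of the respiratory chain showed no common direction as deposited. Of 37 complex I subunits 11 were higher and 12 lower (median log2 change -0.01), and of 41 subunits of complexes II to V 17 were higher and 11 lower (median 0.03). With GC trends removed, falls outnumbered rises in both, at 16 lower and 2 higher in complex I (median -0.19) and 14 lower and 4 higher in complexes II to V (median -0.17). Median-of-ratios scaling gave 22 lower and 5 higher in complex I, and 18 lower and 10 higher in the others. NDUFS7, a subunit of complex I that carries an iron-sulfur cluster, stood at 162, 133 and 159 TPM in oeNC and 96.4, 96.1 and 96.2 TPM in oeMCART1, with changes of -0.64 and -0.29 with GC trends removed. NDUFS4, a subunit needed for stable complex I, moved the other way at 28.3, 41 and 32.7 TPM in oeNC and 62.8, 61.8 and 60.7 TPM in oeMCART1 (0.86 and 0.27). ATP5PO of ATP synthase stood at 388, 445 and 421 TPM in oeNC and 600.5, 608 and 606 TPM in oeMCART1 (0.53 and 0.38), while COX6C of cytochrome oxidase read 0.57 as deposited and -0.07, not called, after removal. With 1 library left out the number lower after removal ranged from 5 (without oeMCART1 replicate 3) to 23 (without oeNC replicate 2) in complex I and from 2 (without oeMCART1 replicate 3 or oeNC replicate 3) to 24 (without oeNC replicate 2) in complexes II to V. Of 17 assembly factors of complex I 11 were higher and 3 lower, with 4 and 2 after removal. TMEM126B, 1 of them, stood at 40.7, 51.9 and 39.7 TPM in oeNC and 86.8, 86 and 88.3 TPM in oeMCART1.

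Factors that copy, transcribe and process mitochondrial DNA were mostly higher as deposited while the mRNAs they serve were lower. Of 23 genes of mitochondrial DNA replication and transcription 14 were higher and 4 lower, with 3 and 3 after GC trends were removed. TFAM, which packages and transcribes mitochondrial DNA, stood at 11.9, 16.6 and 12.8 TPM in oeNC and 29.2, 31.7 and 29 TPM in oeMCART1 (log2 change 1.08, 0.35 after removal). POLRMT, the mitochondrial RNA polymerase, stood at 85.2, 71 and 78.2 TPM in oeNC and 44.1, 51.4 and 47.7 TPM in oeMCART1 (-0.70 and -0.33). The 2 moved in opposite directions, and both kept their call. Of 13 regulators of mitochondrial biogenesis 5 were higher and 3 lower (3 and 5 after median-of-ratios scaling, 1 and 0 after removal, also 1 lower at an unadjusted limma p under 0.05). Of 20 genes of mitochondrial RNA processing and stability 14 were higher and 5 lower, with 5 and 2 after removal. FASTKD2, which binds MT-RNR2 and is needed for the large mitochondrial ribosome, stood at 4.32, 5.85 and 5.64 TPM in oeNC and 12.6, 13.7 and 14.4 TPM in oeMCART1 (1.22 and 0.50), and TRMT10C, a subunit of mitochondrial RNase P, at 15.5, 18.3 and 17.4 TPM in oeNC and 35.2, 36 and 36.9 TPM in oeMCART1. LRPPRC, which stabilises mitochondrial mRNAs and was picked after its values were seen, stood at 24.3, 38.6 and 32.4 TPM in oeNC and 67.9, 72 and 73.8 TPM in oeMCART1 (1.16 and 0.55).

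Of 79 mitochondrial ribosomal proteins tested 35 were higher and 23 lower (median 0.18), and that balance turned to 11 higher and 16 lower with GC trends removed and to 19 and 31 after median-of-ratios scaling. MRPL3 rose as deposited and after removal, at 76.4, 114 and 89.1 TPM in oeNC and 188, 194 and 185 TPM in oeMCART1 (1.03 and 0.42), as did MRPS22 (0.80 and 0.57) and MRPL32 (0.86 and 0.45). The number lower after removal ranged from 4 (without oeMCART1 replicate 2) to 26 (without oeNC replicate 2). Of 43 other SLC25 carriers that passed the filter, of 57 listed, 12 were higher and 11 lower, with 11 and 18 after median-of-ratios scaling and 3 and 8 after GC removal. After removal the number of these carriers lower ranged from 2 (without oeMCART1 replicate 3 or oeNC replicate 3) to 13 (without oeNC replicate 2), and the number higher was 0 without any 1 oeMCART1 library or oeNC replicate 3 and at most 2. SLC25A10, the dicarboxylate carrier, fell from 82.1, 71.5 and 84.5 TPM in oeNC to 50.7, 52 and 52.2 TPM in oeMCART1, and SLC25A1, the citrate carrier, from 164, 139.6 and 164 TPM in oeNC to 106, 106 and 107 TPM in oeMCART1. SLC25A24, a carrier of ATP-Mg and phosphate, rose from 5.43, 7.87 and 6.3 TPM in oeNC to 12.6, 14 and 14.3 TPM in oeMCART1. The groups of libraries did not overlap in these 3 carriers, as in nearly all called genes.

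Among genes that make NAD, 15 of 21 passed the filter, 7 were higher and 2 lower, and 1 of each after GC trends were removed. NAMPT, which limits the rate of NAD salvage, stood at 14.5, 21.1 and 17.1 TPM in oeNC and 33, 34.4 and 34.5 TPM in oeMCART1 (0.93 as deposited and 0.21 after removal). NNT, which passes electrons from NADH to NADP+ in the inner membrane, stood at 15.3, 20.8 and 15.8 TPM in oeNC and 33.1, 31.8 and 33.1 TPM in oeMCART1, and NUDT12, which cleaves NADH, at 2.38, 3.2 and 2.45 TPM in oeNC and 6.24, 5.56 and 6.34 TPM in oeMCART1. Both lost their call after removal (adjusted p = 0.0873 and 0.0595). Of 19 consumers of NAD tested, 10 were higher and 3 lower, with 3 and 0 after removal (0 lower at an unadjusted limma p under 0.05). The 3 were the deacetylase SIRT1 (0.99 and 0.30) and the ADP-ribosyltransferases TIPARP (1.08 and 0.48) and TNKS2 (0.99 and 0.38). After removal limma called 0 of the NAD consumers higher without any 1 oeMCART1 library or oeNC replicate 3 (3 to 7 had an unadjusted p under 0.05), 1 without oeNC replicate 1 and 3 without oeNC replicate 2. TIPARP stood at 3.76, 7.04 and 5.31 TPM in oeNC and 11.4, 12.4 and 12.7 TPM in oeMCART1.

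Of 30 TCA cycle and pyruvate entry genes 16 were higher and 4 lower as deposited, but 4 higher and 7 lower with GC trends removed and 11 of each after median-of-ratios scaling. SDHD, a membrane anchor of succinate dehydrogenase, stood at 47.5, 71.8 and 51.7 TPM in oeNC and 112, 116 and 109.8 TPM in oeMCART1 (0.99 and 0.31), and SUCLG2, a succinyl-CoA ligase, at 11.4, 18.4 and 15.1 TPM in oeNC and 31.3, 31.2 and 29.5 TPM in oeMCART1 (1.01 and 0.34). The 2 malate dehydrogenases of the NADH shuttle parted. The cytosolic MDH1 rose from 128, 162 and 145 TPM in oeNC to 254, 250.5 and 235 TPM in oeMCART1 (0.77 and 0.38), and the mitochondrial MDH2 fell from 309, 291 and 323 TPM in oeNC to 241, 235 and 242 TPM in oeMCART1 (-0.36 and -0.40).

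Glycolysis was among the lists in which falls outnumbered rises under every scaling run: 12 of 23 genes were lower and 5 higher (median -0.25), 9 lower and 2 higher with GC trends removed, and 16 lower and 3 higher after median-of-ratios scaling. After removal and without 1 library the number lower ranged from 2 (without oeMCART1 replicate 3 or oeNC replicate 3) to 12 (without oeNC replicate 2). ENO1, enolase, stood at 3278, 3039.9 and 3324 TPM in oeNC and 2409.8, 2384 and 2385 TPM in oeMCART1 (-0.42 and -0.20), and PKM, pyruvate kinase, at 1591, 1422 and 1586 TPM in oeNC and 1123, 1097 and 1138 TPM in oeMCART1 (-0.45 and -0.23). LDHB, the lactate dehydrogenase subunit that favours pyruvate formation, went the other way at 668, 946 and 814 TPM in oeNC and 1476, 1496 and 1452 TPM in oeMCART1 (0.88 and 0.53). All 3 kept their call after removal. In the folate one-carbon list 11 of 20 genes rose and 1 fell, and 3 and 2 did after removal. In fatty acid oxidation 12 of 23 rose and 6 fell (3 and 1 after removal), and those higher included ACADM, the medium-chain acyl-CoA dehydrogenase (1.03 and 0.35), and in cholesterol synthesis 11 of 24 rose and 8 fell (2 and 2 after removal, 8 and 13 after median-of-ratios scaling). In the pentose phosphate pathway 2 of 7 rose and 5 fell (0 and 1 after removal, with 2 lower at an unadjusted limma p under 0.05), and of 9 genes of the NADH shuttles 5 rose and 3 fell (1 and 2).

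Target genes of the transcription factor p53 had the highest median of the 40 lists with GC trends removed. Of 25 genes 18 were higher and 1 lower as deposited (median 0.55), 10 higher and 0 lower with GC trends removed (median 0.30, also 0 lower at an unadjusted limma p under 0.05), and 12 higher and 3 lower after median-of-ratios scaling. CCNG1, cyclin G1, stood at 54.8, 73.3 and 57.6 TPM in oeNC and 137, 139 and 141 TPM in oeMCART1 (1.16 and 0.43). SESN1, a sestrin that restrains growth signalling, stood at 4.53, 8.71 and 5.49 TPM in oeNC and 15.9, 14.8 and 15.4 TPM in oeMCART1 (1.22 and 0.66), and TRIAP1, an inhibitor of apoptosis, at 48.4, 62.6 and 57.7 TPM in oeNC and 104, 99.2 and 95 TPM in oeMCART1 (0.82 and 0.27). The groups did not overlap in these 3 genes, as in nearly all genes called higher. MDM2, the ubiquitin ligase that degrades p53, and CDKN1A, the cell cycle inhibitor p21, were picked after their values were seen. MDM2 stood at 9.69, 18.1 and 11.9 TPM in oeNC and 28.4, 30.5 and 30.6 TPM in oeMCART1 (1.16 and 0.52) and CDKN1A at 16.9, 12 and 15.3 TPM in oeNC and 18.4, 19.4 and 19.1 TPM in oeMCART1 (0.36 and 0.56). BBC3, a killer protein of the BCL2 family, was the 1 gene lower as deposited (-0.45), and it was not called after removal. The number higher as deposited was 11 without oeMCART1 replicate 2 or 3, and after removal it ranged from 5 (without oeMCART1 replicate 2) to 15 (without oeNC replicate 2), with 0 lower each time.

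Cytosolic heat shock chaperones rose in 16 and fell in 4 of 29 genes (median 0.60), and in 9 and 2 with GC trends removed (median 0.12). HSPH1, a nucleotide exchange factor of HSP70, stood at 26.1, 41.1 and 34.9 TPM in oeNC and 77.9, 83.2 and 83 TPM in oeMCART1 (1.26 and 0.54), and HSPA4L, of the same family, at 4.23, 6.11 and 4.88 TPM in oeNC and 12.4, 13.2 and 13.8 TPM in oeMCART1 (1.23 and 0.49). HSP90AA1, given above, moved furthest. Heat shock factor 1 recognises a repeat of inverted GAA units, and the promoters of the chaperones (RefSeq, GRCh38.p14, the 250 bases before each gene's start) were searched on both strands for a strict form, the units GAA, TTC and GAA in a row with 2 bases of any kind between them. It was found in 0.439% of 27305 promoters and in 3 of the 25 chaperone genes with a promoter sequence, HSPA8, DNAJB6 and CHORDC1. The 29 bases around each match are shown 5′ to 3′ on the gene's strand, with the match in capitals, since these are the members with the letters of that element. They lie at chr11:123062346-123062374 (minus strand), chr7:157336865-157336893 (plus strand) and chr11:90223089-90223117 (minus strand), and HSPA8 and CHORDC1 hold 2 and 3 matches, of which 1 each is shown.
HSPA8: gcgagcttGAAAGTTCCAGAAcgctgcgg
DNAJB6: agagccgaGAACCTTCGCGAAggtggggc
CHORDC1: cgcgaccgGAAAATTCGCGAAggttcctg
HSPA8, the constitutive HSP70, stood at 809, 1097 and 988 TPM in oeNC and 1652, 1677 and 1569 TPM in oeMCART1 (0.77 and 0.45). CHORDC1, a partner of HSP90, stood at 20.1, 35.3 and 28.5 TPM in oeNC and 56.5, 61.4 and 57.6 TPM in oeMCART1 (1.07 and 0.39), and DNAJB6, an HSP40, at 74.7, 105 and 76.6 TPM in oeNC and 119, 110.1 and 119.5 TPM in oeMCART1 (0.45 and 0.27, the latter not called). All 3 genes with the letters rose as deposited and 2 with GC trends removed, and so did 11 and 6 of the 22 chaperone genes without them. HSP90AA1 and HSPH1 were among the 22, and the absence of these exact letters in the window says nothing on whether the factor binds.

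The unfolded protein response of the endoplasmic reticulum rose in 15 and fell in 2 of 26 genes (median 0.28), and in 9 and 2 with GC trends removed (median 0.13), where the number higher ranged from 3 (without oeMCART1 replicate 2 or 3) to 10 (without oeNC replicate 2). HSP90B1, the HSP90 of that compartment, stood at 152, 239 and 203 TPM in oeNC and 422, 475 and 458 TPM in oeMCART1 (1.21 and 0.59). DNAJC3, an inhibitor of the kinase PERK, stood at 4.23, 7.53 and 5.01 TPM in oeNC and 12.9, 12.9 and 13.5 TPM in oeMCART1 (1.13 and 0.41), and SEL1L, a part of the degradation machinery, at 3.54, 6.29 and 4.58 TPM in oeNC and 11.2, 11.1 and 10.9 TPM in oeMCART1 (1.08 and 0.36). The 3 genes kept their call after removal. Promoters were also searched on both strands for the endoplasmic reticulum stress element (CCAAT and CCACG with 9 bases of any kind between them), which was found in 0.0806% of 27305 and in 6 of the 23 genes of this list with a promoter sequence (HSPA5, HSP90B1, CALR, CANX, CRELD2 and XBP1). Of these 6, 3 rose as deposited and 1 after removal, and of the 17 without the letters 11 and 7 did. HSPA5, the best known target and picked after its values were seen, stood at 233, 322 and 296 TPM in oeNC and 405, 425 and 405 TPM in oeMCART1 (0.55 as deposited and 0.17, not called, after removal). Targets of ATF4, the factor of the integrated stress response, were mixed as deposited, with 19 of 46 higher and 11 lower (median 0.05), 15 and 20 after median-of-ratios scaling, and 11 and 3 with GC trends removed (median 0.06). After removal the number higher ranged from 4 (without any 1 oeMCART1 library) to 15 (without oeNC replicate 2). Of these 11, 6 were tRNA synthetases, which load amino acids onto tRNA (EPRS1, GARS1, IARS1, LARS1, NARS1 and YARS1), and XPOT exports tRNA from the nucleus. NARS1 stood at 24.5, 39.6 and 31.1 TPM in oeNC and 63.2, 65.4 and 65.3 TPM in oeMCART1 (1.03 and 0.53). The transcription factor CEBPG stood at 7.19, 10.1 and 8.22 TPM in oeNC and 16.2, 16.8 and 16.8 TPM in oeMCART1 (0.90 and 0.38). GDF15, a stress hormone picked after its values were seen, stood at 0.7, 0.36 and 0.61 TPM in oeNC and 1.61, 1.16 and 1.52 TPM in oeMCART1, so that it passed the abundance filter through the oeMCART1 libraries alone, and its values are given as a description. The serine and proline enzymes SHMT2 (-0.47 and -0.38) and PYCR1 (-0.41 and -0.11) were lower as deposited, and the latter lost its call after removal.

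In the antioxidant list 13 of 30 genes were higher and 9 lower, with 11 and 13 after median-of-ratios scaling and 3 and 7 after GC trends were removed. Those 7 became 2 without oeMCART1 replicate 1 or 2 or oeNC replicate 3, 3 without oeMCART1 replicate 3 or oeNC replicate 1, and 12 without oeNC replicate 2. NFE2L2, which encodes the antioxidant regulator NRF2, stood at 6.65, 8.01 and 8.68 TPM in oeNC and 16.9, 17.7 and 17.5 TPM in oeMCART1 (1.07 and 0.66). The superoxide dismutase SOD1 (0.40 and -0.01) and thioredoxin TXN (0.65 and 0.05) were called higher as deposited and not after removal. Mitochondrial chaperones and proteases split into 11 higher and 7 lower of 24, with 7 and 10 after median-of-ratios scaling and 4 and 3 after GC removal. YME1L1, a protease of the inner membrane, stood at 14, 23.3 and 18.2 TPM in oeNC and 40.4, 41 and 40.4 TPM in oeMCART1 (1.12 and 0.43), and OMA1, a protease that acts in stress signalling, at 10.4, 14.6 and 12.3 TPM in oeNC and 23.2, 28.6 and 25.8 TPM in oeMCART1 (1.01 and 0.28).

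**Figure D5:**
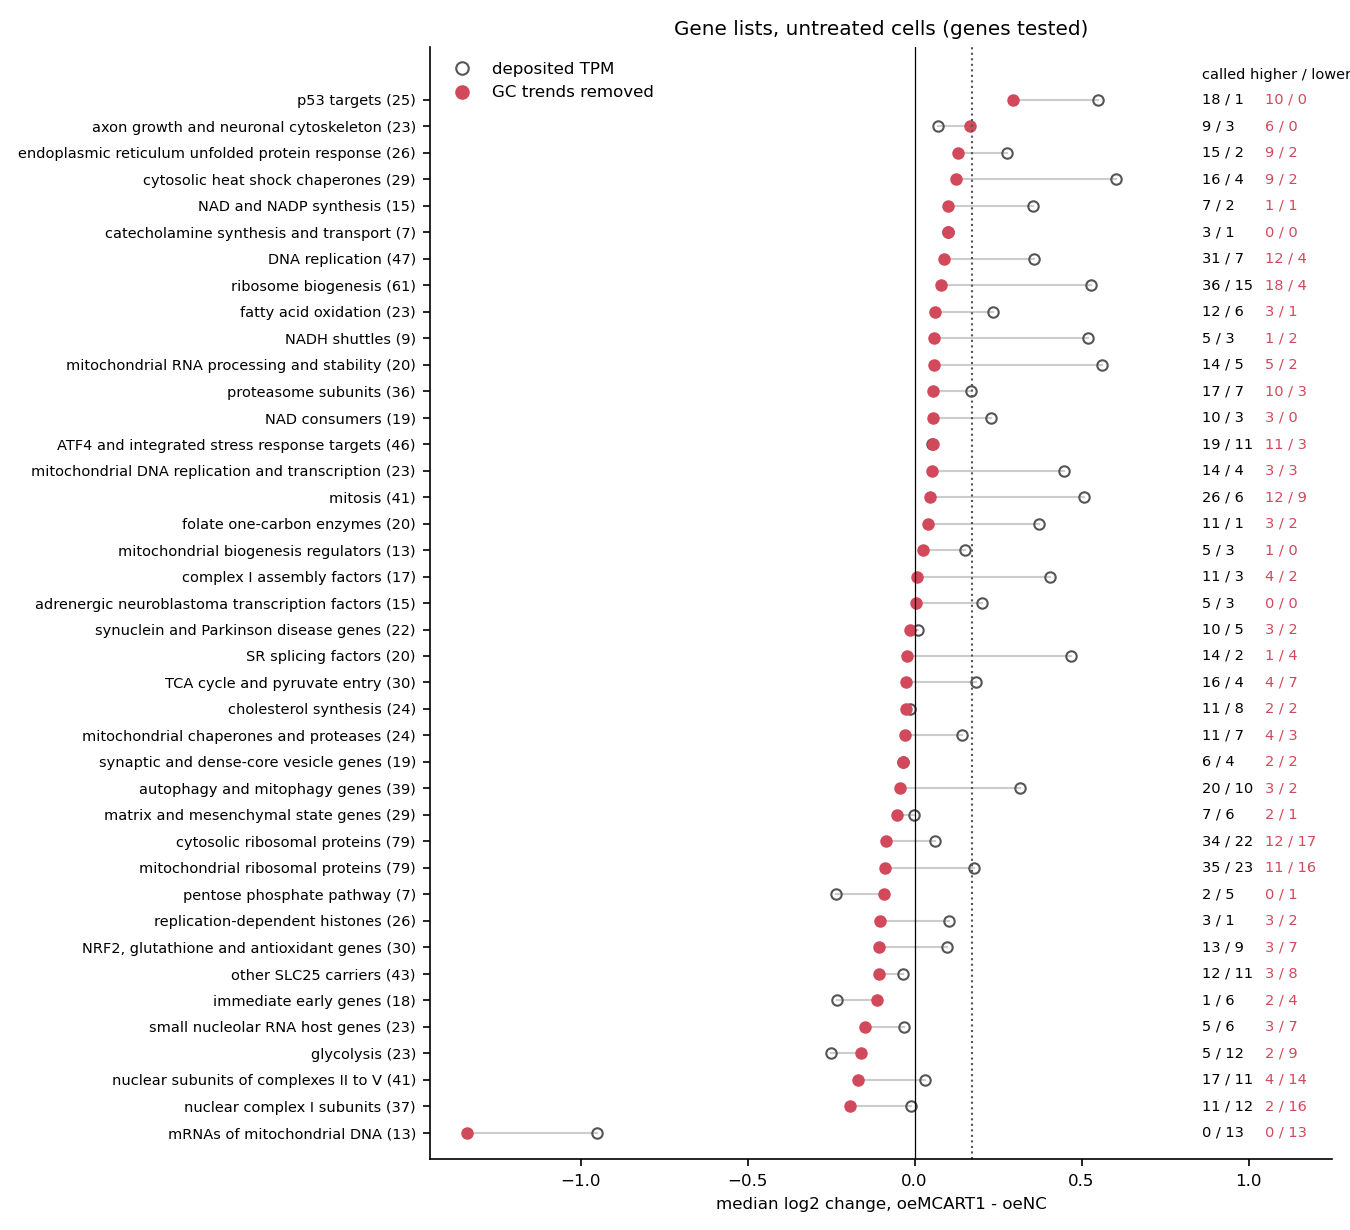
Median log2 change (oeMCART1 minus oeNC) of each gene list with at least 5 genes tested, as deposited (open circles) and with GC trends removed (filled circles), ordered by the latter. The solid line marks 0 and the dotted line the median of all genes as deposited, 0.17. The columns at the right give the genes called higher and lower, as deposited (black) and with GC trends removed (red). The mitochondrial mRNAs lie lowest, at -0.95 and -1.34, and p53 targets lie highest after removal, at 0.30.

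Ribosome biogenesis factors rose in 36 and fell in 15 of 61 genes (median 0.53), and in 18 and 4 with GC trends removed (median 0.08). After removal the number higher ranged from 7 (without oeMCART1 replicate 2) to 25 (without oeNC replicate 2). NPM1, the nucleolar protein nucleophosmin, stood at 1002, 1428 and 1289.6 TPM in oeNC and 2589, 2712 and 2607 TPM in oeMCART1 (1.10 and 0.54). DDX21, a nucleolar helicase, stood at 42.3, 62.3 and 52.1 TPM in oeNC and 121, 129 and 120.5 TPM in oeMCART1 (1.24 and 0.56), and GNL2, a GTPase of large subunit assembly, at 27.9, 36.7 and 36.7 TPM in oeNC and 70.8, 71 and 71 TPM in oeMCART1 (1.06 and 0.63). The oeMCART1 libraries lay outside the 9 other untreated libraries in these 3 genes, as they did in 61.3% of all genes called higher. The ribosomal proteins themselves, whose reads may be mixed with those of near-identical pseudogenes, were split, with 34 of 79 higher and 22 lower as deposited, 12 and 17 with GC trends removed, and 19 and 34 after median-of-ratios scaling. The number lower after removal ranged from 1 (without oeMCART1 replicate 2) to 35 (without oeNC replicate 2). RPS24 rose from 2354, 2751 and 2390.0 TPM in oeNC to 4065, 4113 and 4119.9 TPM in oeMCART1 (0.72 and 0.58), RPS7 by 0.68 and 0.64, and RPS29 fell, as given above. Proteasome subunits rose in 17 and fell in 7 of 36 genes, in 10 and 3 after removal, and in 14 and 13 after median-of-ratios scaling. PSMA4 of the core particle stood at 248, 355 and 296 TPM in oeNC and 632, 627 and 597 TPM in oeMCART1 (1.06 and 0.43).

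Genes of DNA replication rose in 31 and fell in 7 of 47 (median 0.36), with 12 and 4 after removal (median 0.09), and genes of mitosis in 26 and 6 of 41 (median 0.51), with 12 and 9 (median 0.05). Without 1 library the number higher after removal ranged from 3 to 14 and from 3 to 15, highest without oeNC replicate 2 in both. RRM1, a subunit of ribonucleotide reductase, stood at 40.7, 59.5 and 49 TPM in oeNC and 108, 111 and 103 TPM in oeMCART1 (1.11 and 0.53). TOP2A, a topoisomerase of dividing cells, stood at 27.8, 35 and 39.9 TPM in oeNC and 80, 80.4 and 85.3 TPM in oeMCART1 (1.2498 and 0.52), and PLK1, a kinase that drives mitosis, fell from 230.3, 223 and 242 TPM in oeNC to 167, 162 and 169 TPM in oeMCART1 (-0.48 and -0.30). Of 26 replication-dependent histone genes tested, of 58 listed, 3 rose and 1 fell as deposited, which adds H4C15 (0.61) to the 2 given above. The count was 3 higher and 2 lower with GC trends removed, 2 and 2 after median-of-ratios scaling and 1 and 3 after quantile normalization. With library weights limma called 0 of the histone genes (1 higher and 2 lower at an unadjusted p under 0.05). H4C14 and H4C15 are both histone H4 genes, and whether they share reads was not tested. Histone transcripts without a poly(A) tail were not captured, so these counts do not cover them. SR splicing factors rose in 14 and fell in 2 of 20 genes as deposited and in 1 and 4 with GC trends removed, where SRPK1, a kinase that acts on them, was the 1 still higher, at 22.5, 33.3 and 27.6 TPM in oeNC and 55.6, 58.5 and 56.7 TPM in oeMCART1 (1.02 and 0.42). Small nucleolar RNA host genes were higher in 5 and lower in 6 of 23, with 3 and 7 after removal, and SNHG5 rose from 328, 357 and 326 TPM in oeNC to 532, 529.6 and 490.5 TPM in oeMCART1.

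Genes of axon growth and the neuronal cytoskeleton were 23 of 31 that passed the filter, with 9 higher and 3 lower (median 0.07), 6 and 0 with GC trends removed (median 0.17, 1 lower at an unadjusted limma p under 0.05), and 7 and 8 after median-of-ratios scaling. The 6 became 2 without oeMCART1 replicate 2 or 3, 3 without oeMCART1 replicate 1 or oeNC replicate 3, and 8 without oeNC replicate 2. NEFM, the medium neurofilament, stood at 10.5, 12.7 and 13.4 TPM in oeNC and 21.1, 23.6 and 20.9 TPM in oeMCART1 (0.79 and 0.84). NEFL, the light neurofilament, stood at 11.1, 14.4 and 14.3 TPM in oeNC and 20.3, 21.3 and 21.6 TPM in oeMCART1 (0.64 and 0.39), and MAP1B, a microtubule protein of growing axons, at 2.38, 3.19 and 2.57 TPM in oeNC and 5.56, 6.1 and 5.81 TPM in oeMCART1 (0.88 and 0.42). TUBB3 was lower as deposited (-0.38) and not called after removal (-0.09). Synaptic and dense-core vesicle genes were higher in 6 and lower in 4 of 19 (5 and 8 after median-of-ratios scaling, 2 and 2 after GC removal), and CPE, a carboxypeptidase that trims prohormones, rose from 14.6, 18.9 and 17.3 TPM in oeNC to 28.7, 28.3 and 27.3 TPM in oeMCART1 (0.70 and 0.41). Of 17 listed genes of catecholamine synthesis and transport 7 passed the filter, 3 were higher and 1 lower as deposited, and limma called 0 with GC trends removed (1 had an unadjusted p under 0.05). The 3 were MAOA, which breaks amines down, and PTS (0.64 and -0.06) and GCH1 (0.52 and -0.05), which make the cofactor of tyrosine hydroxylase. In the list of adrenergic transcription factors 5 of 15 were higher and 3 lower as deposited, 3 and 5 after median-of-ratios scaling, and limma called 0 after removal (2 had an unadjusted p under 0.05, 1 in each direction).

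Of 22 synuclein and Parkinson disease genes tested 10 were higher and 5 lower, 7 and 9 after median-of-ratios scaling, and 3 and 2 with GC trends removed. VPS35, a subunit of the retromer, stood at 15.3, 24.2 and 16.6 TPM in oeNC and 46.1, 37.5 and 42.4 TPM in oeMCART1 (1.15 and 0.50), and ATP13A2, a lysosomal transporter, at 42.1, 37 and 43.8 TPM in oeNC and 27.9, 25.6 and 26.3 TPM in oeMCART1 (-0.60 and -0.25). PARK7, which encodes DJ-1, read 0.38 as deposited and -0.07, not called, after removal. Autophagy and mitophagy genes were higher in 20 and lower in 10 of 39, with 14 and 15 after quantile normalization and 3 and 2 after GC removal, and TAX1BP1, an autophagy receptor, stood at 7.74, 12.2 and 9.45 TPM in oeNC and 24.6, 24.3 and 25 TPM in oeMCART1 (1.27 and 0.54). Immediate early genes were lower in 6 and higher in 1 of 18, with 4 and 2 after removal. JUND stood at 21.7, 18.7 and 20.4 TPM in oeNC and 13.1, 11.4 and 11.9 TPM in oeMCART1 (-0.69 and -0.30) and NR4A1 at 7.45, 7.27 and 8.04 TPM in oeNC and 4.75, 4.65 and 4.14 TPM in oeMCART1 (-0.64 and -0.42). Both are transcription factors of the early response, and their libraries did not overlap, as in nearly all genes called lower. In the matrix and mesenchymal list 7 of 29 rose and 6 fell (5 and 9 after median-of-ratios scaling, 2 and 1 after GC removal), and ACTA2, smooth muscle actin, stood at 2.77, 4.37 and 3.43 TPM in oeNC and 6.05, 6.9 and 8.05 TPM in oeMCART1 (0.83 and 0.77).

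Set against the knockdown in the same table, the 2 effects differed in 8972 of 14703 genes (61.0%) by a contrast over 12 untreated libraries. They differed in 64.8% of genes after median-of-ratios scaling and in 4292 of 14157 (30.3%) with GC trends removed. Of these calls 66.9% were higher as deposited, 49.6% after median-of-ratios scaling and 53.8% with GC trends removed. The 2 effects share no library. SLC25A51 changed by 4.39 with the construct and by -0.56 with the hairpin (adjusted p = 0.0195). HSP90AA1 changed by 1.41 and -1.37 (difference 2.78, and 2.004 with GC trends removed). CCNG1 changed by 1.16 and -1.47, and its difference was 2.64 and 1.30 with GC trends removed. Of the heat shock chaperones 17 of 29 had a higher and 4 a lower effect with the construct than with the hairpin, 16 and 11 after median-of-ratios scaling, and 15 and 2 with GC trends removed. Of the p53 targets 13 of 25 were higher and 2 lower, 11 and 5 after median-of-ratios scaling, and 10 and 0 with GC trends removed. In the mitochondrial mRNAs the overexpression effect was the lower in 8 of 13 as deposited and in 13 of 13 with GC trends removed, and the median change with the hairpin was -0.27. Across genes the 2 effects ran in opposite directions as deposited (Spearman -0.84 over 13944 genes). The GC contrast within libraries, flat in oeMCART1 and steep in shMCART1, differed between the groups in the same way. In the lowest GC bin the median change was 0.75 with the construct and -0.65 with the hairpin, and in the highest -0.33 and 0.27. The correlation of the 2 effects was not computed with GC trends removed.

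With MPP+ the same construct was compared with the same control in 6 other libraries, where 60.7% of 13885 genes were called. These libraries are in a separate table with fewer entries, so each effect was taken within its own table, and the treatment and the table cannot be told apart. The effect differed between the 2 settings in 2766 of 14811 genes (18.7%), 1998 higher and 768 lower with MPP+, a split of 72.2% higher that became 50.9% after median-of-ratios scaling and 54.8% with GC trends removed. SLC25A51 stood at 7.87, 8.15 and 9.44 TPM in oeNC and 1008, 931 and 869.9 TPM in oeMCART1 with MPP+, so the control was lower there and the change larger (log2 change 6.63). Of the 5040 genes called higher in untreated cells and tested with MPP+, 4104 (81.4%) were called higher there as well, and of 2294 called lower 824 (35.9%) were called lower and 389 (16.96%) higher. With GC trends removed these shares were 55.3% of 1251 and 42.7% of 1116. LBH, at 29.7, 26.1 and 25.2 TPM in oeNC and 2.4, 2.79 and 3.13 TPM in oeMCART1 with MPP+, changed by -1.01 without and -2.89 with MPP+ (difference -1.88, limma adjusted p = 9.52e-05). NEFM changed by 0.79 and -0.14 (difference -0.94, adjusted p = 0.00178), and HSP90AA1 by 1.41 and 1.58 (difference 0.17, adjusted p = 0.597). In all 13 mitochondrial mRNAs the effect was higher with MPP+ than without, by a median of 1.33 on the log2 scale, of 1.2495 after median-of-ratios scaling and of 1.32 with GC trends removed. They had been lower in 13 of 13 without MPP+ under each of these scalings. With it they were higher in 9 and lower in 2 as deposited (median 0.47), higher in 5 and lower in 3 after median-of-ratios scaling (median 0.15), and higher in 4 and lower in 3 with GC trends removed (median 0.075). Of all genes tested with MPP+, 47.1% were higher and 13.6% lower as deposited (median 0.27). These shares were 26.4 and 27.5% after median-of-ratios scaling, and 24.2 and 20.5% with GC trends removed. The counts of mitochondrial mRNAs under the last 2 scalings were near them.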

How the data were processed

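Polyadenylated RNA of 6 untreated overexpression libraries was the main material. Strand-specific libraries were made after oligo-dT capture, per the labels' protocols. The deposited values are TPM computed by the authors, in 1 table for untreated and 1 for MPP+ libraries. Which aligner, annotation and strand setting they used is not given in the sources used here. Reads from a gene and an antisense partner can thus be mixed. TPM keep no depth, which is therefore unknown. Of genome builds, GRCh38, GRCm38 and mm10 stand in the submitters' processing notes with no role. Of 63266 entries in the untreated and 36783 in the MPP+ table, 25 and 42 without an identifier were left out.

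Values were taken as log2(TPM + 1), which understates changes of low genes. Genes that reached 1 TPM in 3 or more of the 6 libraries went into limma 3.58.1 (R 4.3.3, trended variance, 6 libraries) and were called at a Benjamini-Hochberg adjusted p under 0.05. Of these genes 12333 reached 1 TPM in all 6 libraries, 524 in exactly 3 (in 187 of them the 3 were oeMCART1, in 48 oeNC), and 550 genes just outside the filter reached it in 2. Differences between effects were contrasts over 12 libraries. Transcript GC content came from the longest basic transcript in GENCODE 29, and its trend was removed per library with a natural spline (5 degrees of freedom), level included. Genes named are SLC25A51 and SLC25A52, genes of mitochondrial DNA, the 15 nuclear protein-coding genes called higher and the 15 called lower with the largest change (mean of 5 TPM in the higher group, groups apart), 8 and 8 by the same rule with GC trends removed, up to 3 called members with the smallest p of each list, and called cell type markers; a few genes these rules name are not reported here. The members and the 40 lists were chosen with earlier results of these data known. The fit was tested on simulated data. Alternatives were other pseudocounts, filters, scalings, GC and length removal, a replicate block, robust variance, library weights, a fit of 12 libraries and leaving out each library, and, added after seeing the data, GC removal with each library left out and median-of-ratios scaling of the effect with MPP+. Python 3.11.15, pandas 2.3.3, numpy 2.4.6, scipy 1.17.1 and matplotlib 3.10.9 were used.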

Additional observations from a re-analysis of the deposited data

Results flagged for a closer look

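The overexpression effect differed between cells with and without MPP+ in 2766 genes, by limma's contrast of the 2 effects. Among the genes named above, 9 mitochondrial mRNAs drew attention because their calls were opposite in the 2 settings, lower with the construct in untreated cells and higher with it under MPP+, and the difference itself passed the test. The calls under MPP+ depended on the scaling: 5 of the 13 mRNAs had opposite calls after median-of-ratios scaling and 4 with GC trends removed (MT-ND4, MT-ND4L, MT-ATP6 and MT-ATP8), where the median change under MPP+ was 0.15 and 0.075 against 0.47 as deposited. The difference passed the test in 13 of 13 under all 3, counted as listed genes that need not vary independently. Over all genes, 459 had opposite calls as deposited, 232 after median-of-ratios scaling and 228 with GC trends removed. Of all genes called lower without MPP+ and tested with it, 16.96% were called higher with it as deposited and 13.7% with GC trends removed. The difference, effect with MPP+ minus effect without, was 2.55 for MT-ATP8 and 2.503 for MT-ATP6 on the log2 scale. It was 1.71 for MT-ND4L, 1.61 for MT-ND4 and 1.24 for MT-ND5. It was 1.47 for MT-CO2, 1.36 for MT-CO3, 1.21 for MT-CO1 and 1.33 for MT-CYB. In the 3 oeNC libraries the 13 mRNAs summed to 7.66 to 9.84% of TPM without and 0.395 to 0.456% with MPP+. In oeMCART1 they summed to 4.05 to 5.01% without and 0.657 to 0.772% with it. In the captured RNA the mean share of the 2 mitochondrial ribosomal RNAs in oeNC was 0.458% without and 0.480% with MPP+. In oeMCART1 it was 0.463 and 0.846%. Treatment and table cannot be told apart in these shares, and their difference between the settings was not tested. In SNHG29, the host of small nucleolar RNAs, the effect of the construct was lower with MPP+, at 0.33 without and -0.17 with MPP+ (difference -0.50, limma adjusted p = 0.000278).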

How the results depend on the processing

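The depth behind the TPM is unknown, so it sets no limit that could be given. SLC25A51 kept its direction and call under every alternative run. The 7651 genes called in untreated cells became 2468 with GC trends removed, 2554 with GC and length trends removed, and, with GC trends removed and 1 library left out, 969, 745 and 812 (without oeMCART1 replicate 1, 2 and 3) and 1443, 3560 and 935 (without oeNC replicate 1, 2 and 3). Under the other alternatives they ranged from 5537 (without oeMCART1 replicate 2) to 8912 (without oeNC replicate 2). The 8972 genes in which the effect differed from the knockdown became 4292 with GC trends removed, and otherwise ranged from 7983 to 9532. The 2766 genes in which it differed under MPP+ ranged from 2092 to 3421. Of 174 named genes called as deposited, 121 kept direction and call with GC trends removed, 43 lost the call and 10 changed sign. These 10, none called after removal, had log2 changes of -0.15 (MT-RNR2), -0.068 (COX6C), -0.012 (SOD1), -0.011 (SRSF11), -0.22 (SNHG6), -0.062 (PTS), -0.053 (GCH1), -0.066 (PARK7), -0.21 (PRRX1) and -0.089 (EYA1), with or without the replicate block. With length removed as well, 6 of them read -0.082 (MT-RNR2), -0.021 (SRSF11), -0.11 (SNHG6), -0.0674 (GCH1), -0.23 (PRRX1) and -0.11 (EYA1). PRRX1 stood at 0.4, 0.93 and 0.31 TPM in oeNC and 1.03, 1.22 and 1.08 TPM in oeMCART1. It thus passed the abundance filter through the oeMCART1 libraries alone, and its values are given as a description. After median-of-ratios scaling 166 of the 174 kept their call and 8 lost it. Whether replicate numbers mark pairs was not settled. Deviations of same-numbered libraries correlated at 0.037, 0.155 and 0.125, and those of unlike numbers at -0.150 to 0.062. Replicates 2 and 3 of oeNC correlated best with their own number, and oeNC replicate 1 with oeMCART1 replicate 3. With the replicate number as a block 7256 genes were called, and 1910 with GC trends removed too.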

Other observations

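The effect of the construct with MPP+ was set against that without it in further gene lists, by the contrast of the 2 effects within their own tables, in which 18.7% of all genes differed (16.2% after median-of-ratios scaling and 24.1% with GC trends removed). Of 79 cytosolic ribosomal proteins 39 had a lower and 2 a higher effect under MPP+ (39 and 0 after median-of-ratios scaling, 40 and 0 with GC trends removed), and the median difference was -0.23. RPS24 rose by 0.72 without MPP+ and read 0.02 with it, and RPS7 rose by 0.68 and read 0.02. Of 24 cholesterol synthesis genes 11 had a lower and 1 a higher effect (14 and 1 under both other scalings), among them MSMO1, a sterol oxidase (0.92 without and -0.10 with MPP+), and HMGCS1, the synthase that precedes HMG-CoA reductase (1.047 and 0.33). NAMPT, of the NAD salvage route, moved likewise (0.93 and 0.05, limma adjusted p of the difference = 0.00395).

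Higher effects under MPP+ were counted in 9 of 25 p53 targets with 0 lower (5 and 2 after median-of-ratios scaling, 15 and 2 with GC trends removed) and in 8 of 26 genes of the unfolded protein response with 0 lower (6 and 0, 10 and 0). In 37 nuclear complex I subunits 15 were higher and 1 lower (7 and 2, 11 and 4), and in 79 mitochondrial ribosomal proteins 26 and 3 (8 and 6, 23 and 6). Of the mitochondrial ribosomal proteins 36.7% thus differed as deposited, but 17.7% after median-of-ratios scaling, close to the share of all genes. ACTA2 rose by 0.83 without and by 1.88 with MPP+.

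Outside the marker lists, and chosen after their values were seen, transcription factors of the posterior body axis were abundant in all 12 untreated libraries. HOXB9 stood at 87.9 to 119.6 TPM and HOXD13 at 61.7 to 92.9 TPM. The cell cycle inhibitor gene CDKN2A stood at 251 to 403 TPM.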
